A study of Mus musculus with 6 samples.

Results

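Sciatic nerves of control littermates at postnatal day 14 were profiled on 3 of the 6 arrays of the series, and those 3 control arrays are described here. They were chosen by their label alone. The label gives them as control littermates and names no allele or transgene for them. Female and male are named together for each sample, and the labels do not say whether an array held 1 animal or several. The other 3 arrays came from nerves of mice carrying P0-Cre, a transgene that gives Cre recombinase in the Schwann cell lineage, together with a Dicer allele labelled "F or N", which is not explained. No level of the mutant arrays is compared with a control level. Tissue of all 6 samples was fresh frozen nerve from which total RNA was extracted. The spread between the 3 control arrays therefore covers animals, dissection and array handling together and may be partly technical.

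Peripheral nerve at this age is an organ in the middle of building myelin. Schwann cells wrap each large axon with a membrane rich in cholesterol and galactolipids and fill it with a small set of myelin proteins, under the transcription factors Sox10 and Egr2. Around them lie a basement membrane, collagen-rich connective tissue, a perineurial sheath, blood vessels and resident macrophages, and outside the sheath lie fat and skeletal muscle.

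Signals are the deposited normalized values on a log2-like scale, and each gene stands for its brightest probe. There were 19057 genes with a single symbol. In every list of values, the order is control array 1, 2 and 3. Brightness depends on the probe as well as on the amount of RNA, so the order of genes is an order of signals and not of transcript amounts. Placement is given as the share of genes that were as bright or brighter. In whole tissue, fewer cells of a type and less RNA per cell cannot be told apart. The background level was set at 8.36, the 99th percentile of 1296 sensory receptor genes (olfactory, vomeronasal, taste and trace amine receptors), whose median was 8.12 and whose highest member was at 8.58. By that level 10008 genes were above background, 52.5% of all genes. That share is to be read beside every count of list genes above background. Genes above background correlated between control arrays with r of 0.995 for arrays 1 and 2, 0.994 for 1 and 3, and 0.992 for 2 and 3, as a description across genes that share all arrays.

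Of the 51 genes above background whose highest and lowest control arrays were at least 1 apart, 37 were highest on array 2. Another 11 ran in the order array 3, 2, 1, from highest to lowest. The former are called the muscle set here, although only 17 of them were in the list of skeletal muscle genes. The latter, with 7 in the interferon or MHC lists, are called the interferon set. The RefSeq promoters of the 2 genes with the largest span in each set are shown first, because the search for motifs described with the results was made on such windows. Each window runs from 250 bases before to 50 bases after the annotated start in build GRCm38.p6, and capitals mark the motif matches. Igtp, an interferon-induced GTPase, is on the plus strand with its window at chr11:58199306-58199605. The window of Gbp2, a guanylate-binding protein induced by interferon, is at chr3:142620413-142620712 on the plus strand. For Actc1, the cardiac actin that developing skeletal muscle also makes, it is at chr2:114052826-114053125 on the minus strand. Sypl2, a membrane protein of the muscle triad, has its window at chr3:108226550-108226849 on the minus strand.
Igtp: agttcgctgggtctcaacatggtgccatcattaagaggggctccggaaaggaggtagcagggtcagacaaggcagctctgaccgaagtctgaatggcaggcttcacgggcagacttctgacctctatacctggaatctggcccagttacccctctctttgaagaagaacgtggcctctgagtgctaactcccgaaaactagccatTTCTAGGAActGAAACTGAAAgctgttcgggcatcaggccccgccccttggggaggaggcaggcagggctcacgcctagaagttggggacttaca
Gbp2: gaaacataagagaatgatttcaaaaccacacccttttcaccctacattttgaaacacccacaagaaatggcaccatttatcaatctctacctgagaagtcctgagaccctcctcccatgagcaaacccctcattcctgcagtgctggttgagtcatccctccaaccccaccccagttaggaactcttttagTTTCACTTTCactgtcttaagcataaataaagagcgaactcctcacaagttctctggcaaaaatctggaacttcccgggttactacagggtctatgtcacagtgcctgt
Actc1: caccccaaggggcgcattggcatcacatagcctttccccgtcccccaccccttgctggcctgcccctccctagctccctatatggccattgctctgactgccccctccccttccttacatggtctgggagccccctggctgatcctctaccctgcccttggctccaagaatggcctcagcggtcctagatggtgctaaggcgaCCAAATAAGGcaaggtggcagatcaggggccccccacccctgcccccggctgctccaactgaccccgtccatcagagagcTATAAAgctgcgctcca
Sypl2: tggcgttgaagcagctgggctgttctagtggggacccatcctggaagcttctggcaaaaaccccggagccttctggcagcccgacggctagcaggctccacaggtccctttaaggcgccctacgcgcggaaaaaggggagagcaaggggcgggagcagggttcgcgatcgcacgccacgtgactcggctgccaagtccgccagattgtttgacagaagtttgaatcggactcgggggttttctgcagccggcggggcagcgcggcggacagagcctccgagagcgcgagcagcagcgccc

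In the window of Igtp, capitals mark TTCNNNGAA, the core that STAT factors bind, at -45 to -37 and GAAANNGAAA, the core of the interferon-stimulated response element, at -34 to -25, counted from the annotated start. Gbp2 held GAAANNGAAA at -59 to -50, on the opposite strand. The window of Actc1 held a CArG box, the site of serum response factor, at -47 to -38 and TATAAA at 33 to 38, past the annotated start. Sypl2 held none of the searched motifs.

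The brightest genes joined myelin, connective tissue and protein synthesis. Mbp, which compacts the cytoplasmic faces of myelin, was the brightest gene of all at 15.80, 15.79 and 15.79 (mean 15.79 ± 0.0097, SD, n = 3). Pmp22, a membrane protein of compact myelin, came next at 15.74, 15.70 and 15.72 (mean 15.72 ± 0.02, SD, n = 3). Then followed the mitochondrial CYTB, the ferritin heavy chain Fth1 and the fetal growth factor Igf2, which gave 15.67, 15.62 and 15.65. Among the next 20 were the collagen-binding proteoglycan Dcn, the matrix glycoprotein Sparc, the tubulins Tuba1b and Tubb5, the acyl-CoA binding protein Dbi, the tetraspanin Cd9, the myelin fatty acid binding protein Pmp2, the kinase Aatk and the ion transport regulator Fxyd6. The same 20 held the ribosomal protein genes Rplp1, Rpl41, Rpl23, Rps29, Rpl38, Rps14, Rps2 and Rpl3, the elongation factor Eef1a1, the ubiquitin-related Ubb-ps and the mitochondrial ND4. The highest deposited value of any probe was 15.91, and whether the brightest probes were saturated was not tested.

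**Figure D1:**
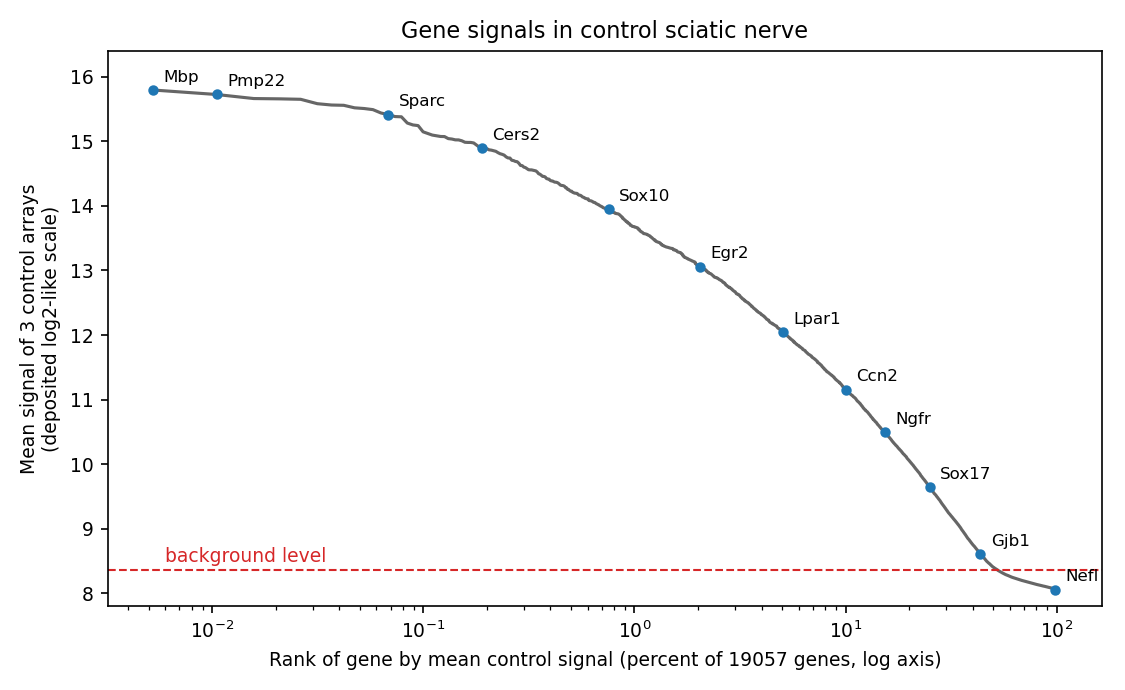
Mean signal of the 3 control arrays (vertical axis, deposited log2-like scale) against the rank of each of 19057 genes as a percentage of all genes (horizontal log axis), with 12 genes marked. The curve falls from Mbp at 15.79 through Lpar1 at 12.05 and Ccn2 at 11.15 to the background level at 8.36, drawn as a dashed line, with Nefl under it.

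List genes nearest to each step mark this scale, as the curve of signal against rank shows. They were taken from any list and not for a function in nerve. The brightest 1% of genes ended at 13.68, the value of the ribosomal Rpl12. The lysophosphatidic acid receptor Lpar1 lay at the edge of the brightest 5% with 12.05. Ccn2, the connective tissue growth factor, stood at the edge of the brightest 10% with 11.15. The endothelial transcription factor Sox17 sat at the edge of the brightest 25% with 9.65, and the vascular laminin chain Lama4, with 8.40, at the middle of all genes and just above background.

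Genes of the compact myelin protein list were placed high as a group. The list also holds members outside compact myelin, such as Gjb1 of the incisures and the junction protein Jam3. Of the 20 list genes measured, 19 were above background, against 52.5% of all genes. In the brightest 10% of genes were 14, and 9 were in the brightest 1% (0.997% of all genes). Besides Mbp and Pmp22, the plasmolipin relative Mal gave 14.63, 14.55 and 14.47. The adhesion protein of the inner myelin wrap, Mag, gave 14.51, 14.17 and 14.26. Ncmap, a myelin protein of peripheral nerve, gave 14.34, 14.51 and 14.49. The span, meaning the highest minus the lowest control array, had a median of 0.20 over the list, above the 0.13 of all genes above background. It was largest in the junction protein Jam3, at 0.48. Pmp2 had a span of 0.45, from 15.26 on array 1 to 14.81 on array 2. Mbp was near the top of the scale on its brightest probe, and a dimmer Mbp probe gave 13.39, 13.37 and 13.69, a span of 0.32. At the dim end were Gjb1, the connexin of myelin incisures, at 8.61, 8.56 and 8.65, and Mpzl1 at 8.49, 8.48 and 8.55, while Gjc3, another connexin, was not above background.

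The enzymes that supply the myelin membrane were bright as well. All 15 measured cholesterol synthesis genes were above background and 6 were in the brightest 10%, led by Fdps, which makes farnesyl diphosphate, at 14.15, 13.92 and 14.09. Msmo1, a sterol methyl oxidase, gave 13.46, 13.12 and 13.45, and Sqle, the squalene epoxidase, gave 12.92, 12.80 and 12.95. Fatty acid genes reached the brightest 10% in 12 of 20, with the desaturase Fads1 at 14.57, 14.47 and 14.59, the elongase Elovl1 at 14.43, 14.26 and 14.32 and the desaturase Scd1 at 14.14, 14.05 and 14.22. Of the sphingolipid and galactolipid enzymes, 10 of 19 were in the brightest 10%. Cers2, the ceramide synthase for very long acyl chains, gave 14.93, 14.84 and 14.92, and Ugt8a, which makes galactosylceramide, gave 14.48, 14.51 and 14.63. Fasn, the fatty acid synthase, was listed at 8.61, 8.53 and 8.48, close to background, and the probe of Acaca, the carboxylase before it, was not above background.

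Cholesterol, myelin and fatty acid genes were more often lowest on array 2 than genes above background in general. In the cholesterol list 14 of 15 genes were lowest on array 2, in the myelin list 15 of 19 and in the fatty acid list 12 of 19, where 36.9% of all genes above background were lowest on that array. The sphingolipid and galactolipid list did not share this, with 7 of 18 lowest on array 2. The list means moved by 0.20 for cholesterol synthesis, 0.16 for compact myelin proteins and 0.12 for fatty acid synthesis between the highest and the lowest array. The skeletal muscle list was highest on the same array, and its part in this difference was not tested.

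Schwann cell regulators spread over the whole range of signal. Sox10, needed for every stage of the Schwann cell lineage, was the brightest of them at 13.97, 13.92 and 13.94 (mean 13.94 ± 0.02, SD, n = 3). Egr2, the driver of myelination, gave 12.90, 13.03 and 13.25 (mean 13.06 ± 0.18, SD, n = 3). Pou3f1, which acts before Egr2, gave 11.70, 11.79 and 11.59, and Zeb2, which represses inhibitors of myelination, gave 12.41, 12.43 and 11.95. Of the factors linked to the immature or repair state, Jun gave 9.47, 9.50 and 9.29, Sox2 gave 8.47, 8.68 and 8.60, and Pax3 was not above background. In all, 16 of 18 factors were above background and 7 were in the brightest 10%. The widest was Nfatc4, which was 10.17, 10.13 and 9.63.

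Receptors and ligands were mostly of middling signal. Among receptors 20 of 23 were above background, 6 were in the brightest 10% and 0 in the brightest 1%. Ednrb, the endothelin receptor, led with 12.94, 12.85 and 12.93, followed by the TGF-beta receptor Tgfbr2 with 12.69, 12.80 and 12.75 and the PDGF receptor Pdgfra, a fibroblast gene, with 12.12, 12.16 and 12.26. Adgrg6, the adhesion receptor required to start myelination, gave 10.48, 10.30 and 10.51. The neuregulin receptor subunit Erbb2 gave 9.35, 9.34 and 9.48, while its partner Erbb3 was not above background on its probe, at 8.30, 8.38 and 8.30. Of 23 ligands, 14 were above background, where 52.5% of all genes were. Dhh, the hedgehog ligand made by Schwann cells, followed Igf2 with 13.21, 13.10 and 13.38, and Pdgfa gave 12.81, 12.54 and 12.69. Fgf1 had the largest span of the ligands, 0.52, from 11.87 on array 1 to 12.39 on array 3. Neuregulin itself, Nrg1, and the neurotrophic factors Bdnf, Gdnf and Cntf were not above background.

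Genes of axon-glia contact and of non-myelinating Schwann cells were placed lower than myelin. The dystroglycan partner Drp2 gave 14.09, 14.00 and 14.14, the integrin chain Itgb4 gave 13.78, 13.62 and 13.75, and Gldn, which clusters sodium channels at nodes, gave 13.20, 13.07 and 13.32. Only these 3, Dag1 and Sgcb of the 21 genes of that list were in the brightest 10%. The low-affinity neurotrophin receptor Ngfr gave 10.58, 10.38 and 10.53, Ncam1 gave 10.09, 10.07 and 10.30, and Gfap was not above background. In the list for immature and non-myelinating Schwann cells, 13 of 19 were above background and 1, Ednrb, was in the brightest 10%.

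**Figure D2:**
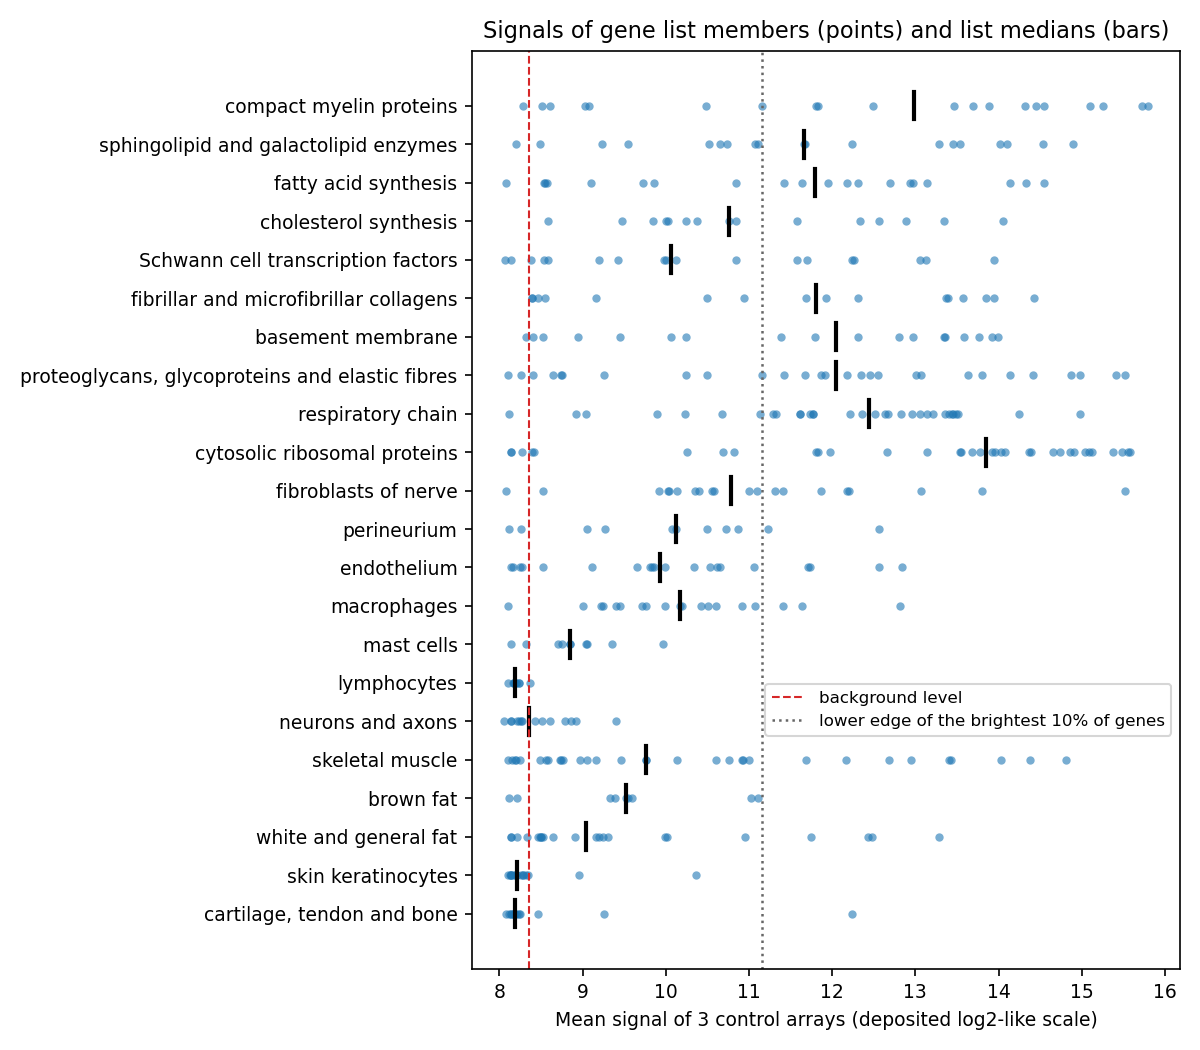
Mean signal of the 3 control arrays (horizontal axis, deposited log2-like scale) for the measured members of 22 gene lists, with a point per gene and a bar at the list median. The medians of compact myelin proteins (12.98), respiratory chain (12.44) and ribosomal proteins (13.85) lie right of the dotted edge of the brightest 10%, and those of lymphocytes, keratinocytes and cartilage lie left of the dashed background level.

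Matrix genes were also placed high, as the plot of list medians shows. Among proteoglycans, glycoproteins and elastic fibre genes, 26 of 28 were above background and 19 in the brightest 10%. Dcn gave 15.59, 15.47 and 15.49, Sparc 15.41, 15.46 and 15.36, and the small proteoglycan Ogn 15.07, 14.77 and 15.12. All 16 collagen genes of the fibrillar and microfibrillar list were above background and 9 were in the brightest 10%. Col5a1, a nucleator of collagen fibrils, gave 14.46, 14.40 and 14.41, and Col6a1, of the beaded microfibrils, gave 13.99, 13.98 and 13.85. Of the main fibril chains, Col3a1 gave 14.20, 13.78 and 13.56, but its second probe gave 10.76, 11.57 and 11.37 and so ran in another order. Col1a2 gave 13.54, 13.70 and 12.85 (mean 13.36 ± 0.45, SD, n = 3), while Col1a1, the other chain of the same fibril, gave 13.56, 13.64 and 13.51. So arrays 1 and 2 were alike for Col1a2 and array 3 was lower, and Col1a1 did not share that dip.

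Basement membrane genes followed the same placement with small spans. Here 17 of 18 were above background and 11 were in the brightest 10%. Col4a1 gave 14.08, 13.95 and 13.96, the laminin chain Lamc1 gave 13.99, 13.93 and 13.86, and Agrn, agrin, gave 13.75, 13.76 and 13.80. Lama2, the laminin chain of the Schwann cell basement membrane, gave 11.75, 11.72 and 11.91. The genes that fold, crosslink and trim collagen were all 19 above background, with the collagen chaperone Serpinh1 at 14.33, 14.25 and 14.25 and the gelatinase Mmp2 at 13.76, 13.64 and 13.64.

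Genes of oxidative phosphorylation and translation filled much of the upper range. Of 32 nuclear respiratory chain genes 31 were above background and 25 in the brightest 10%, led by the ATP synthase subunit Atp5b at 14.90, 15.12 and 14.93 and Cox4i1 at 14.21, 14.32 and 14.23. The mitochondrial genome contributed 8 measured genes, of which 5 were in the brightest 1%: CYTB, ND4, ND1, ATP6 and COX2. Cytosolic ribosomal proteins and translation factors had 19 of 34 in the brightest 1% and 26 in the brightest 10%. Rpl14, Rps20 and Rpl6 were not above background, although ribosomal proteins are made in every cell, and Tpt1 was at 8.49, 8.33 and 8.44, so a dim probe here does not show that a transcript is scarce. Glycolysis genes were in the brightest 10% in 9 of 17, with Tpi1 at 13.54, 13.73 and 13.54, and citrate cycle genes in 6 of 17, with Suclg1 at 12.96, 13.14 and 12.99. The probe of Sdha, a subunit of succinate dehydrogenase, was not above background.

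Stress, hormone and growth genes gave a few bright members. The metallothionein Mt1 gave 14.82, 15.00 and 15.01, the cell cycle inhibitor Cdkn1a gave 13.35, 13.24 and 13.45, and the kinase Sgk1, a glucocorticoid target, gave 12.78, 12.93 and 13.29. All 15 of these hormone and metal response genes were above background, 10 of them lowest on array 1, where 28.5% of genes above background were lowest. The chaperones Hspa8, at 13.94, 14.01 and 14.01, and Cryab, at 13.82, 13.68 and 13.91, were in the brightest 1%. Imprinted growth genes had 11 of 17 above background, including the Notch-family ligand Dlk1 at 14.03, 14.14 and 13.99 and the growth inhibitor Cdkn1c at 13.25, 13.47 and 13.30. Cell cycle genes were above background in 19 of 24 but in the brightest 10% in 0, with the spindle protein Prc1 at 10.44, 10.43 and 10.33 and the proliferation marker Top2a at 8.93, 8.99 and 8.93. Of 38 Hox genes, 16 were above background, led by Hoxc6 at 10.93, 10.83 and 10.58. In the clock list 11 of 16 were above background, with the output gene Dbp at 12.37, 12.19 and 12.26. The share above background was 52.5% over all genes, to be read beside each of these list counts.

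Listed genes of nerve sheath, vessel and resident immune cells were mostly above background, where 52.5% of all genes were. Fibroblast genes had 19 of 20 above background, among them the endoneurial factor Osr2 at 12.20, 12.18 and 12.21 and the adventitial Pi16 at 11.34, 11.53 and 11.06. Perineurial genes had 9 of 11, with the glucose transporter Slc2a1 at 12.74, 12.61 and 12.33 and the tight junction protein Cldn1 at 11.33, 11.25 and 11.10. Endothelial genes had 16 of 20, with Ramp2, a receptor partner, at 12.69, 13.02 and 12.83 and the von Willebrand factor Vwf at 11.04, 11.34 and 10.78. Macrophage genes had 18 of 19, with the lysosomal protein Laptm5 at 12.85, 12.75 and 12.85, the mannose receptor Mrc1 at 11.10, 11.01 and 11.10 and the complement chain C1qb at 10.74, 10.96 and 11.03. Mast cell genes had 8 of 10, but 0 in the brightest 10%, with the carboxypeptidase Cpa3 at 9.91, 10.14 and 9.85.

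Most genes of several other cell types were not above background, while 3 globins of red cells were bright. Lymphocyte genes had 1 of 10 above background, the B cell gene Cd79b at 8.44, 8.32 and 8.34, and neutrophil genes 1 of 11, Lcn2 at 8.37, 8.38 and 8.36. Neuronal genes had 7 of 14, close to the 52.5% of all genes, the brightest being Uchl1 at 9.35, 9.41 and 9.46, and the light neurofilament Nefl was not above background. Oligodendrocyte genes had 4 of 12, which were Mag, Cldn11, Aspa and Mobp, while Mog, Olig1, Olig2 and Opalin, which define that central glial cell, were not above background. Of the keratinocyte genes 2 of 15 were above background, Krt10 at 10.38, 10.33 and 10.39 and Krtdap at 8.95, 9.22 and 8.72, with Krt5 and Krt14 at background. Cartilage, tendon and bone genes had 3 of 15, of which Sox9, at 12.19, 12.21 and 12.31, is also made in nerve. Melanocyte genes had 4 of 9, at most 9.02 for Pmel. Red cell genes had 9 of 12 above background. The globins Hbb-bs, Hbb-bt and Hba-a1 were in the brightest 1%, Hbb-bs at 14.63, 14.27 and 14.77. No other member was in the brightest 10%, and Fech, at 8.62, 8.58 and 8.60, and Slc4a1, at 8.43, 8.35 and 8.48, were near background. Globin and actin genes have near-identical family members, and which member a probe reads was not tested.

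Genes of skeletal muscle and fat, tissues that lie next to the nerve, gave signal on all 3 arrays. Whether their RNA came from outside the nerve was not tested. Over all genes 52.5% were above background, a share to be read beside the counts that follow. Of 32 skeletal muscle genes 27 were above background and 9 were in the brightest 10%, 3 of them in the brightest 1%: Myl1, Acta1 and Pvalb. Not above background were Myl3, Myh7 and Myl2 of slow and cardiac muscle, with Trdn and Neb. White and general fat genes had 18 of 22 above background, led by the lipase Lpl at 13.38, 13.39 and 13.08, and the fat-cell hormone Adipoq gave 12.04, 11.86 and 11.35, though Fabp4 and Cd36 were not above background on their probes. Brown fat genes had 7 of 9, including Ucp1, the uncoupling protein, at 9.29, 9.78 and 9.50 and Cidea at 9.08, 9.60 and 9.49.

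Most genes differed little between the 3 control arrays. Among genes above background the median span was 0.13, and 95% of genes stayed within 0.38. The steadiest of the brightest 10% of genes included Fth1, Tspan17, Ext2, Nicn1, Clic4, Uqcrh, Ift20, Tubb4b, Nsmce1 and Slc25a3, with spans of at most 0.012. A span of at least 1 was found for 51 genes, 0.510% of the genes above background, and a span of at least 0.5 for 242 genes, 2.42%. Of the 51, 37 were highest on array 2 (0.370% of genes above background), 11 ran in the order array 3, 2, 1 (0.110%), and 3 did neither. With a single group of 3 arrays no test of these differences exists, and they are given as a description.

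**Figure D3:**
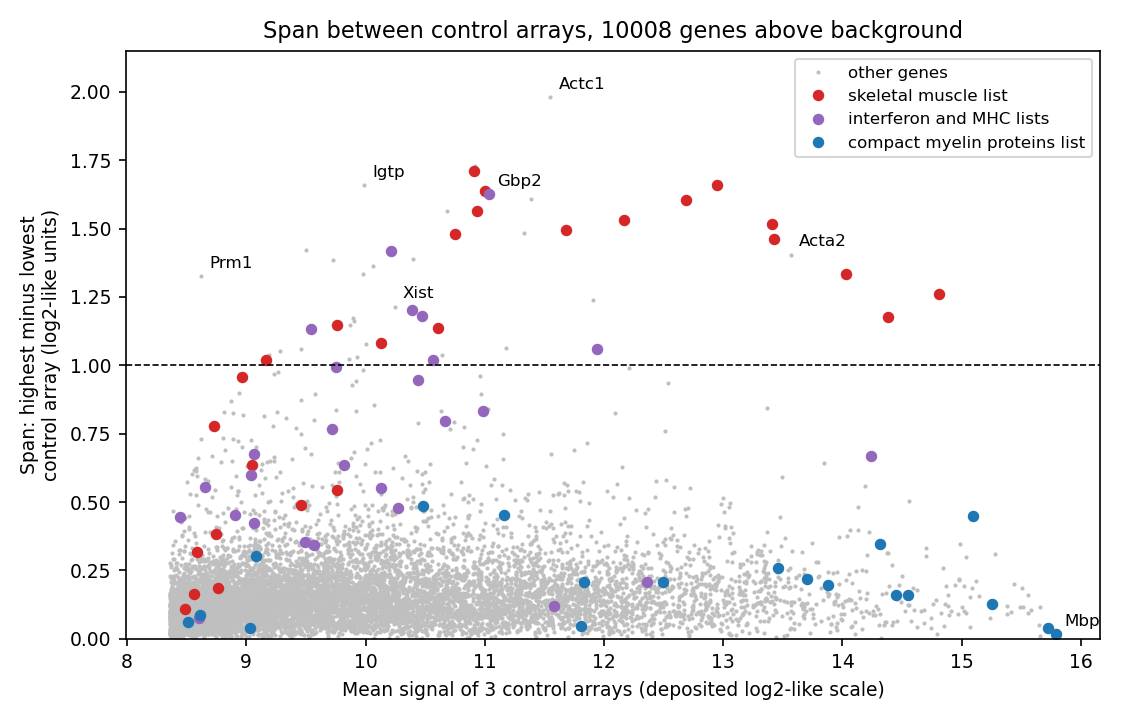
Span between the highest and lowest control array (vertical axis, log2-like units) against mean control signal (horizontal axis, deposited log2-like scale) for 10008 genes above background, with members of 4 lists in colour. The 17 of 27 muscle list genes (red) with a span of at least 1 have means from 9.17 (Myoz1) to 14.81 (Myl1). Members of the compact myelin protein list (blue) stay at or under 0.48.

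The largest spans belonged to fast skeletal muscle on array 2. Actc1 gave 10.88, 12.87 and 10.90 (mean 11.55 ± 1.14, SD, n = 3) and had the largest span of all, 1.98. Sypl2 gave 10.56, 11.97 and 10.24, the muscle enolase Eno3 gave 10.40, 12.03 and 10.32, and the fast troponin C gene Tnnc2 gave 12.38, 14.04 and 12.43. For each of them arrays 1 and 3 were close together and array 2 stood apart above both. The same held for the creatine kinase Ckm, at 10.53, 12.05 and 10.41, the fast myosin heavy chain Myh4, at 11.67, 13.19 and 11.66, and the fast light chain Mylpf, at 13.06, 14.34 and 12.82. Of the 37 genes highest on array 2, 17 were in the muscle list and 17 in no list. The others were Acta2 and Des of the mural cell list and Eln of the elastic fibre list. Those outside the lists, named after their values were seen, were Actc1, Sypl2, Pgam2, Rpl3l, Tpm2, Actn2, Pdlim3, Tmod4, Ampd1, Myom2, Eef1a2, Hrc, Ckmt2 and Adssl1, most of them known from muscle, with Pdlim1, the smooth muscle actin Actg2 and the chemokine Ccl21a, which are not skeletal muscle genes.

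The whole muscle list moved together. Of its 27 genes above background, 25 were highest on array 2, where 30.4% of all genes above background were, and the list means were 10.53, 11.45 and 10.46, a span of 0.98. Without array 2 the list means of the other arrays differed by 0.07. The slow troponins, close to background, did not show a rise of this size on array 2. Tnnt1 gave 8.70, 8.71 and 8.89, Tnni1 gave 8.59, 8.46 and 8.63, and Tnnc1 gave 8.43, 8.54 and 8.50. Myoz1, of the same list and also dim on arrays 1 and 3, gave 8.80, 9.82 and 8.87. Mybpc1, a slow-type myosin binding protein, gave 8.49, 8.78 and 8.47. Brown fat genes were highest on array 2 in 7 of 7, with a list span of 0.36, and Cox8b, shared by brown fat and muscle, gave 10.70, 11.54 and 10.85. Respiratory chain genes were highest on array 2 in 22 of 31, with a list span of 0.09. Whether the muscle signal has a part in these smaller shifts was not tested.

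A second set, of interferon-induced and antigen presentation genes, was highest on array 3 and lowest on array 1. Igtp gave 9.01, 10.29 and 10.67 (mean 9.99 ± 0.87, SD, n = 3). Gbp2 gave 10.07, 11.35 and 11.69, Gbp3 gave 9.46, 10.32 and 10.87 and the GTPase Ifi47 gave 8.69, 9.72 and 10.11. In these GTPase genes array 1 was below the others, which were closer together. Psmb8, an immunoproteasome subunit, gave 9.81, 10.34 and 11.01, the class II invariant chain Cd74 gave 9.86, 10.50 and 11.04, and the class I gene H2-D1 gave 11.34, 12.09 and 12.39. The remaining genes in that order with a span of at least 1 were Irgm2, Psmb9, Gvin1 and H2-Aa.

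The antigen presentation and interferon lists followed as wholes. Among MHC and antigen presentation genes 15 of 15 above background were highest on array 3, against 37.2% of all genes above background, and 14 were lowest on array 1, with list means of 10.34, 10.71 and 11.08. Interferon response genes were highest on array 3 in 11 of 12 and lowest on array 1 in 10, with list means of 9.20, 9.50 and 9.88. B2m, the light chain of class I, gave 13.91, 14.23 and 14.57. The class II loading factors H2-DMa, at 12.29, 12.29 and 12.50, and H2-DMb1, at 11.56, 11.53 and 11.65, moved little, as did Stat2 at 8.57, 8.65 and 8.59. Macrophages can carry class II molecules, and their genes had list means of 10.27, 10.28 and 10.38 and a largest span of 0.47, in Aif1, while lymphocyte genes were at or near background on all arrays, and the part of immune cells in the difference was not tested.

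**Figure D4:**
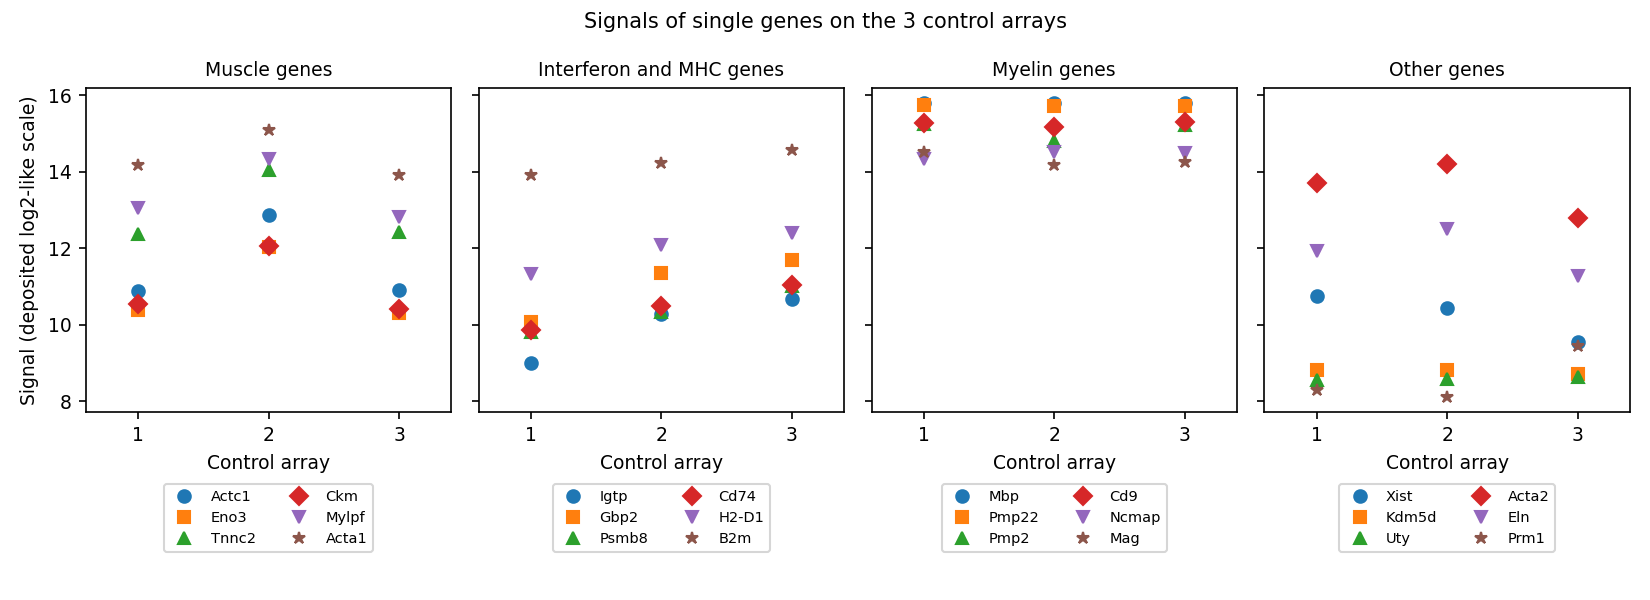
Signals on control arrays 1, 2 and 3 (vertical axis, deposited log2-like scale) of 6 muscle genes, 6 interferon and MHC genes, 6 myelin genes and 6 other genes, with a point per array. Muscle genes peak on array 2 (Actc1 at 12.87), interferon and MHC genes are lowest on array 1 and highest on array 3 (Igtp at 9.01 and 10.67) and the myelin genes shown lie near the top of the scale (Mbp at 15.80, 15.79 and 15.79), with the widest of them, Pmp2, between 14.81 and 15.26.

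The promoter windows of both sets were searched on both strands for 5 motifs. Windows were at hand for 9 of the 11 genes in the order array 3, 2, 1 and for 27 of the 37 genes highest on array 2. GAAANNGAAA was in 4 of 10 windows of the genes in the order array 3, 2, 1, in 0 of 29 windows of the genes highest on array 2 and in 3.44% of all 32851 windows. TTCNNNGAA was in 3 of 10, 2 of 29 and 8.30%. For the CArG box the counts were 0 of 10, 3 of 29 and 1.63%, for the MEF2 site 1 of 10, 5 of 29 and 3.19%, and for TATAAA 4 of 10, 4 of 29 and 13.6%. MEF2 factors drive muscle genes. Some genes have several windows, and TATAAA can overlap a MEF2 site, so the counts are not independent. A match describes letters in a window and does not show that a factor bound there.

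Genes of vessel walls and sheath, and part of the matrix genes, were often lowest on array 3. Acta2, the smooth muscle actin, gave 13.72, 14.19 and 12.79 (mean 13.56 ± 0.71, SD, n = 3), a span of 1.40, and Eln, elastin, gave 11.94, 12.51 and 11.28 (mean 11.91 ± 0.62, SD, n = 3). The smooth muscle myosin Myh11 gave 9.29, 9.48 and 8.66, and the pericyte gene Rgs5 gave 11.12, 11.14 and 10.45. Arrays 1 and 2 were the closer pair for Rgs5 and Myh11. Mural cell genes were lowest on array 3 in 10 of 14 and endothelial genes in 12 of 16, against 34.6% of all genes above background. Perineurial genes were lowest there in 9 of 9, with list means of 10.61, 10.54 and 10.32. Proteoglycan, glycoprotein and elastic fibre genes were lowest on array 3 in 21 of 26, white fat genes in 14 of 18 and immediate early genes in 13 of 15. The fibrillar collagens, in 7 of 16, and basement membrane genes, in 8 of 17, were nearer the share of all genes. Several of these lists were also often highest on array 2, where 30.4% of all genes above background were highest. That held for 12 of 16 endothelial, 10 of 14 mural cell and 12 of 18 white fat genes. It also held for 15 of 26 proteoglycan, glycoprotein and elastic fibre genes. Perineurial genes were highest on array 2 in 3 of 9 and immediate early genes in 7 of 15. Among the immediate early genes Egr1 gave 11.89, 11.56 and 11.22 and Dusp1 gave 11.47, 11.26 and 10.72, both highest on array 1 and lowest on array 3.

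**Figure D5:**
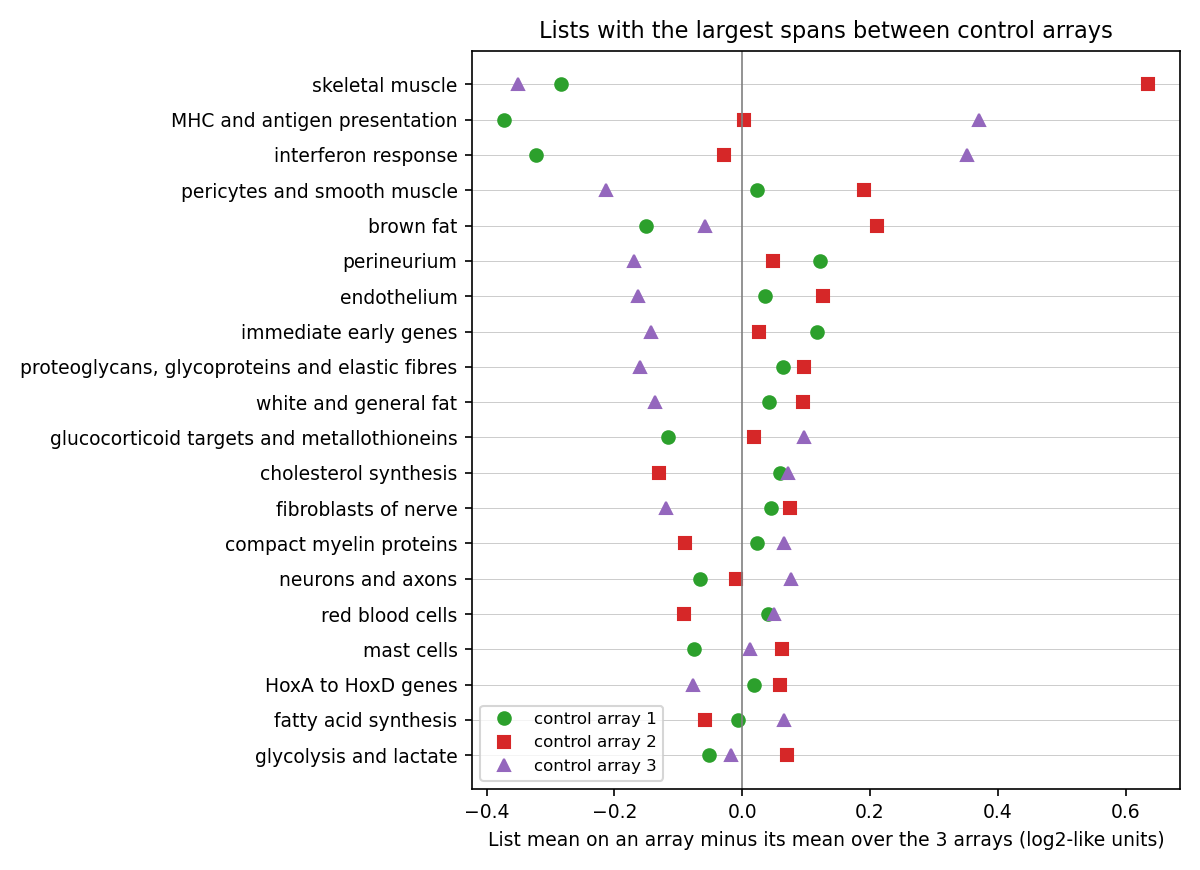
Mean of the list members above background on each control array minus its mean over the 3 arrays (horizontal axis, log2-like units) for the 20 lists with the largest spans. The muscle list on array 2 lies at 0.63, MHC genes run from -0.37 on array 1 to 0.37 on array 3, and mural cell genes reach -0.21 on array 3.

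Xist, Slc15a2 and Prm1 were the 3 variable genes that followed neither order. Xist, the RNA that coats the inactive X chromosome, gave 10.76, 10.43 and 9.54, and a second Xist probe gave 10.75, 10.32 and 9.44, so array 3 was lowest on both. The Y-linked Kdm5d gave 8.83, 8.83 and 8.72 and Uty gave 8.56, 8.59 and 8.63, above background on all 3 arrays, and Eif2s3y was not above background. These Y-linked signals were steady between arrays but close to the highest sensory receptor gene, at 8.58, and the second Kdm5d probe was at background with a mean of 8.12. Slc15a2, a peptide transporter, gave 9.50, 9.15 and 10.53, but its second probe gave 8.80, 8.61 and 8.85. Prm1, a protamine of sperm chromatin, gave 8.30, 8.11 and 9.44, and its second probe gave 8.24, 8.09 and 9.51, so it stood above background on array 3 only.

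Other probes of the same genes bore on these spans. Of the 51 genes, 23 had a further probe above background, and 23 of those 23 were highest on the same array as the brightest probe, while 17 shared both the highest and the lowest array. The size was less often shared: 12 of the 23 further probes reached a span of at least 1. For genes with a span under 1, 44.2% shared the highest array and 25.3% shared both. The 51 genes were picked for their spans on these same arrays, and further probes read the same samples. The higher agreement of their probes is therefore no independent support for the spans. The second probe of Actc1 gave 9.78, 11.71 and 9.64, that of Gbp3 gave 9.31, 9.88 and 10.54, that of Acta2 gave 11.11, 11.68 and 10.24 and that of Cd74 gave 9.76, 10.41 and 10.97. These orders are the same as those of the brightest probes for Gbp3, Acta2 and Cd74, while for Actc1 arrays 1 and 3 changed places.

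Leaving out an array changed which genes reached a span of at least 1. Without array 2, 14 of the 51 genes still spanned at least 1, 0 of them in the muscle list and 7 in the interferon or MHC lists. Without array 1, 35 did, 15 of them in the muscle list and 0 in the interferon or MHC lists. Without array 3, 29 did, 14 in the muscle list and 1 in the interferon or MHC lists. Since the sets are described by the array on which they were highest or lowest, these counts restate that order in numbers of genes and add no support to it.

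Within the 3 mutant arrays the sets behaved differently from each other. A span of at least 1 among mutant arrays was found for 22 of the 37 genes highest on control array 2 and for 0 of the 11 genes in the order array 3, 2, 1, where 2.39% of all genes above background in controls had such a span. The median mutant span was 1.41 for the former and 0.42 for the latter.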

How the data were processed

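The 6 nerve samples were measured on Illumina WG-6 version 2 mouse bead arrays of 45281 probes. The deposited values are normalized signals on a log2 scale or one close to it, between 7.96 and 15.91. RMA normalization with the limma package is stated per the labels (the design text), and lumi 1.8.3 per the submitters' processing notes. These do not settle if the scale is plain log2 or variance-stabilised, or how background was corrected. The sorted values of the 6 arrays differed by at most 0.000254 and each array had a median of 8.24, so the control values also depend on the mutant arrays, and a shift shared by most genes cannot be seen. Sciatic nerve is taken as the tissue from the sample labels and the title, although the design text mentions cultured cells. Array number, not read depth, limits the precision.

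The platform annotation gave 1 symbol for 34885 probes, several for 18 and none for 10378, and only the first were used. Gene identifiers of 34807 of them matched RefSeq (GRCm38.p6), and 0 symbols differed. Each of 19057 genes was represented by its brightest probe, judged by the control mean; 9172 genes had several probes. Of 6116 genes above background with several probes, 64.4% also had a probe that was not above background. No detection p-values were used. Of 904 list entries in 45 lists, 814 matched a gene, 5 of them through a synonym. The members and the lists were chosen with earlier results of these data known. No test was run, since 3 arrays of 1 group allow none. Promoter windows of 300 bases came from RefSeq. Python 3.11.15 with pandas 2.3.3, numpy 2.4.6 and matplotlib 3.10.9 was used. The selection of variable genes was also tried on simulated data. No outcome of that trial is given here, and it adds no support to the spans described.

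Genes were named by a rule: the 25 brightest, the 20 with the largest span, the 10 steadiest of the brightest 10%, and of each list the 4 brightest, the 2 dimmest above background and the widest, with a list member at each of 5 percentiles, 309 genes in all. Other genes named are list members or variable genes picked after their values were seen. Alternatives changed the arrays used, the probe of a gene, the scaling, the background level and the measure of spread.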

Additional observations from a re-analysis of the deposited data

How the results depend on the processing

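No paired analysis was possible because the values come from 1 group of 3 arrays and from no test. Of 57 values recomputed under alternative settings, 50 were labelled as the same as the main value and 7 as moved. That label allows sizeable changes. The 50 include 35 genes with a span of at least 1 without array 1, against 51. They also include 13 muscle genes in the brightest 10% with all probes averaged, against 9. The 7 values that moved concern the 51 genes with a span of at least 1 and the span of the muscle list. Leaving out an array in turn gave between 14 and 35 such genes, 14 without array 2 and 29 without array 3, and a muscle list span between 0.066 without array 2 and 0.98 without array 1. Averaging all probes of a gene gave 32 genes. A span of at least 0.5 gave 242 genes and a span of at least 2 gave 0. An SD of at least 3 times the median SD of the 500 genes nearest in signal gave 370 genes. Centring the arrays on the median of the genes above background kept the 51 as a number. The genes above background numbered between 9556, with all probes averaged, and 11896, with the median of all probes as background. For the 5 lists recomputed (compact myelin, cholesterol, fibrillar collagens, respiratory chain and skeletal muscle), the counts in the brightest 10% stayed within 4 genes of the main count. Near the background level and near the top of the scale, differences between arrays have little room, and a dim probe sets no limit on its transcript.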

Other observations

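Probes without a gene symbol were left out of every count above. Of these 10378 probes, 2463 (23.7%) were above the background level, and 96 had a mean control signal in the range of the brightest 1% of genes. The highest reached 15.91.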
